A study of Homo sapiens with 5 samples.

Results

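The globin genes of the β-globin locus on chromosome 11 and the α-globin locus on chromosome 16, with the α-globin chaperone gene AHSP, were followed in bulk RNA-seq of the HUDEP-2 cell line. Of 9 genes listed by name, 8 were present among the 11976 genes of the authors' deposited table: HBG2, HBD, HBB, HBA2, HBA1, HBM, HBQ1 and AHSP. HBG1 was not analysed here. The series compared 3 libraries labelled ERF knockout with 2 libraries labelled wild type. HUDEP-2 cells are erythroid precursors immortalised from human cord blood, with adult hemoglobin as their main product, and all 5 libraries came from them. ERF is a transcriptional repressor of the ETS family. The wild-type titles carry the letters SCR, which the labels do not explain. The labels give neither the site of the edit nor whether the knockout libraries are separate clones or cultures, and the p-values cover no more than the spread among these libraries, possibly a technical one. The table's name carries the abbreviation Pre, also unexplained, so the culture stage is not known.

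Hemoglobin is a tetramer of α-like and β-like globin chains, each holding a heme group. The β-like genes lie in the order in which they are used in development, from the embryonic gene through the fetal γ-globin genes HBG2 and HBG1 to HBD and the adult gene HBB. A distant enhancer cluster, the locus control region, serves them in turn, and γ-globin is silenced around birth. The α-like genes are served by enhancers inside the neighbouring gene NPRL3, and AHSP binds free α-globin and keeps it from precipitating.

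The authors' deposited table gives 1 fold change, 1 mean expression value and 1 quasi-likelihood F test per gene, and no value per library, so the depth of the libraries is unknown and no per-library level can be shown. Its header does not say which group is the reference. The sign was set so that HBG2 is higher in the knockout, because, going by the title of the series, loss of ERF reactivates γ-globin. HBG2 is therefore not a finding, and every "higher" or "lower" below assumes this sign. Whether a gene moved to the same side as HBG2 does not depend on it. ERF itself moved to the same side as HBG2: its log2 fold change was 0.89 in the authors' deposited table, with a derived standard error of 0.07 (adjusted p = 6.44e-06, quasi-likelihood F test), so its RNA was higher in the libraries labelled knockout. ERF RNA thus goes against the knockout label under this sign, and with the opposite sign HBG2 and all the globin genes that moved with it would be lower in the libraries labelled knockout. RNA abundance does not measure ERF protein.

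Globin RNA rose on both chromosomes together with HBG2. Of the other 7 genes, 6 were past the threshold, an adjusted p below 0.05, and all 6 lay on the same side as HBG2. These were HBD, HBA2, HBA1, HBB, HBM and AHSP. HBQ1 was not past the threshold. Of all genes tested, 50.9% passed, 24.9% on the side of HBG2 and 25.9% on the opposite side. The median log2 fold change of the 7 genes other than HBG2, which set the sign, was 0.43, beside -0.0019 over all 11976 genes. In bulk RNA, a change in the make-up of the cells and a change in RNA per cell cannot be told apart.

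**Figure D1:**
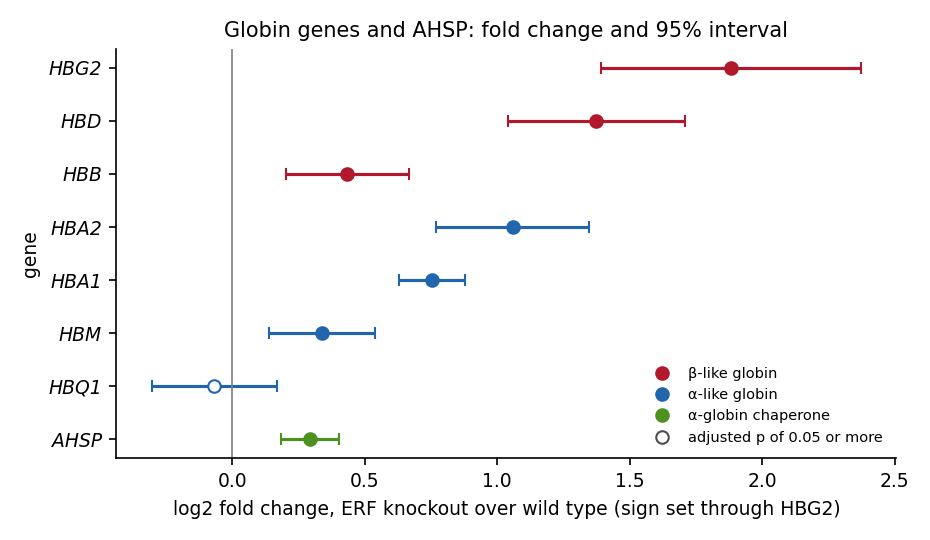
Log2 fold change of the 8 genes, ERF knockout over wild type, with 95% intervals from the derived standard errors. Filled points had an adjusted p below 0.05. HBG2 (1.88), which set the sign, and HBD (1.37) lie farthest from 0, and only the interval of HBQ1 includes 0.

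Among the β-like genes, the fold change was larger the less abundant the gene. HBG2 (ENSG00000196565), which encodes the fetal Gγ chain, stood at 1.88 on the log2 scale in the authors' deposited table, with a 95% interval of 1.39 to 2.37. HBD (ENSG00000223609), which encodes the δ chain of the minor adult hemoglobin A2, rose 2.59-fold. Its log2 fold change was 1.37 in the authors' deposited table, with a standard error of 0.15 and an interval of 1.04 to 1.71 (adjusted p = 5.06e-05, quasi-likelihood F test). HBB (ENSG00000244734), which encodes the adult β chain, rose 1.35-fold. Its log2 fold change was 0.43 in the authors' deposited table, with a standard error of 0.10 and an interval of 0.20 to 0.67 (adjusted p = 0.00588, quasi-likelihood F test). The intervals of HBG2 and HBD overlapped, and the interval of HBB lay below both. HBD exceeded HBB by 0.94 on the log2 scale, a 1.92-fold difference between their folds. These differences between genes were not tested, since the errors share the same 5 libraries.

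Approximate group levels in CPM, read counts scaled to the library total, were derived from the deposited mean expression, the fold change and the group sizes. They have no SD, and each range below carries only the interval of the fold change. HBB was at 6384 CPM in knockout cells (6036 to 6714) and 4725 CPM in wild-type cells (4230 to 5247). HBD was at 121 CPM in knockout cells (115 to 126) and 46.6 CPM in wild-type cells (38.6 to 55.8). HBG2 was at 12.8 CPM in knockout cells (12.1 to 13.4) and 3.48 CPM in wild-type cells (2.59 to 4.60). All of these levels rest on the sign set through HBG2, and because the groups differ in size, turning the sign does not merely exchange them. With the sign turned, HBG2 was at 4.38 CPM in knockout cells and 16.1 CPM in wild-type cells, HBD at 55.7 CPM in knockout cells and 144 CPM in wild-type cells, and HBB at 5016 CPM in knockout cells and 6778 CPM in wild-type cells. HBB dominated the β-like RNA in both groups under either sign.

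Per kilobase of the RefSeq-matched transcript, HBG2 made up 0.202% of the β-like RNA in knockout cells and 0.0747% in wild-type cells. HBD made up 1.49% in knockout cells and 0.783% in wild-type cells, and HBB 98.3% in knockout cells and 99.1% in wild-type cells. The share of HBG2 was 2.71-fold larger in knockout cells, beside its own 3.69-fold change. With the sign turned, HBG2 made up 0.0884% in knockout cells and 0.239% in wild-type cells, so the direction and size of its share both depend on the sign. The share of HBD was then 0.880% in knockout cells and 1.67% in wild-type cells. These shares leave out HBG1, and γ-globin reads that fit both copies may be missing from them, so they are not the γ-globin share of the cell.

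**Figure D2:**
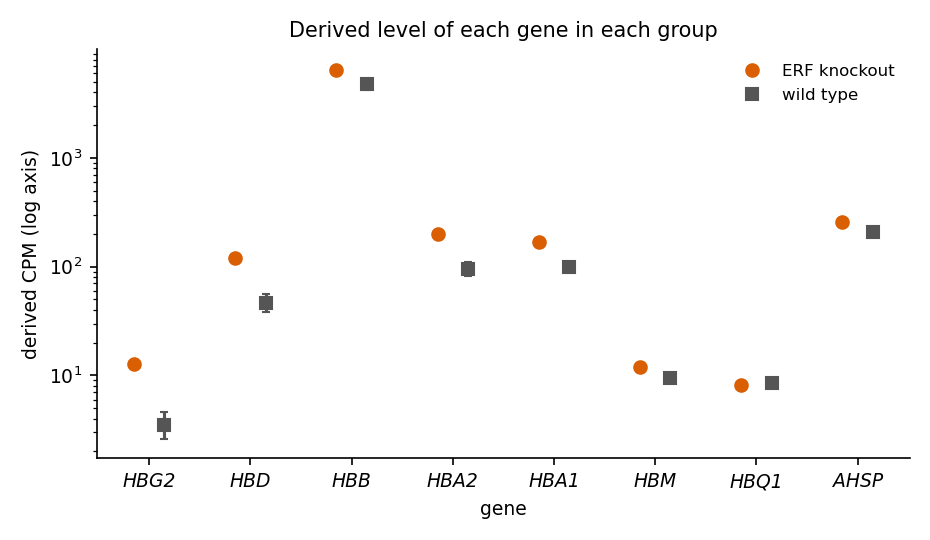
Derived CPM of each gene on a log axis, with knockout cells as circles and wild-type cells as squares, and bars for the interval of the fold change. HBB stands at 6384 CPM in knockout cells and 4725 CPM in wild-type cells, the highest of the 8 genes, and the bars overlap between groups for HBQ1, whose fold change interval includes 0.

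On chromosome 16 the genes of the α chain itself had larger fold changes than their neighbours in the cluster, a difference between genes that was not tested. HBA2 (ENSG00000188536) rose 2.08-fold, or 1.06 on the log2 scale in the authors' deposited table, with a standard error of 0.13 and an interval of 0.77 to 1.35 (adjusted p = 9.98e-05, quasi-likelihood F test). HBA1 (ENSG00000206172) rose 1.69-fold, or 0.75 on the log2 scale in the authors' deposited table, with a standard error of 0.06 and an interval of 0.63 to 0.88 (adjusted p = 4.14e-06, quasi-likelihood F test). HBA2 and HBA1 encode the same α chain, and their intervals overlapped. HBM (ENSG00000206177), which encodes the little-used μ-globin, rose 1.26-fold. Its log2 fold change was 0.34 in the authors' deposited table, with a standard error of 0.09 and an interval of 0.14 to 0.54 (adjusted p = 0.00983, quasi-likelihood F test). HBQ1 (ENSG00000086506), the θ-globin gene at the far end of the cluster, stood at -0.07 on the log2 scale in the authors' deposited table, with an interval of -0.30 to 0.17 (adjusted p = 0.615, quasi-likelihood F test).

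HBA2 was at 198 CPM in knockout cells (188 to 208) and 95.3 CPM in wild-type cells (81.6 to 110), by the same derivation. HBA1 was at 167 CPM in knockout cells (163 to 171) and 98.8 CPM in wild-type cells (92.8 to 105). Per kilobase of transcript, HBA2 was at 344 and HBA1 at 289 CPM in knockout cells, against 165 CPM for HBA2 and 171 CPM for HBA1 in wild-type cells. HBM was at 11.95 CPM in knockout cells and 9.46 CPM in wild-type cells. HBQ1 was at 8.11 CPM in knockout cells and 8.50 CPM in wild-type cells. Summed per kilobase of transcript, the α-like genes were 1.81-fold higher in knockout cells and the β-like genes 1.36-fold higher. The ratio of β-like to α-like RNA was 15.4 in knockout cells and 20.4 in wild-type cells. With the sign turned it was 19.4 in knockout cells and 14.5 in wild-type cells, so which group had the lower ratio depends on the sign. HBA2 was then at 109.6 CPM in knockout cells and 228 CPM in wild-type cells, and HBA1 at 109.5 CPM in knockout cells and 185 CPM in wild-type cells. Most α-globin sequence is shared between HBA2 and HBA1, as given below, and what reads set aside for that reason contribute to these ratios was not tested.

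AHSP (ENSG00000169877), on chromosome 16 but away from the globin cluster, rose with the α genes by a smaller amount. Its RNA was 1.23-fold higher in knockout cells, or 0.29 on the log2 scale in the authors' deposited table, with a standard error of 0.05 and an interval of 0.18 to 0.40 (adjusted p = 0.000726, quasi-likelihood F test). Its derived level was 257 CPM in knockout cells and 210.1 CPM in wild-type cells. The interval of AHSP lay below those of HBA2 and HBA1 and overlapped those of HBB and HBM. Of the 28 pairs among the 8 genes, 20 had intervals that did not overlap. No such count was made over pairs of other genes, so this number has no background to be read against. The pairs also share genes and libraries, and the differences were not tested.

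The RefSeq promoter table used here matched 2 of the 9 listed genes, HBD and HBM. They are shown because no other listed gene had an entry. Both moved with HBG2, HBD by 2.59-fold and HBM by 1.26-fold. Each window runs 5′ to 3′ on the gene's strand from 250 bases before the annotated start to 50 bases after it, from RefSeq (GRCh38.p14). Capitals mark matches on either strand to the motif GATAA, to the motif CCAAT, to the motif CACCC and to the motif TATAA.
HBD promoter, chr11:5234434-5234733, minus strand: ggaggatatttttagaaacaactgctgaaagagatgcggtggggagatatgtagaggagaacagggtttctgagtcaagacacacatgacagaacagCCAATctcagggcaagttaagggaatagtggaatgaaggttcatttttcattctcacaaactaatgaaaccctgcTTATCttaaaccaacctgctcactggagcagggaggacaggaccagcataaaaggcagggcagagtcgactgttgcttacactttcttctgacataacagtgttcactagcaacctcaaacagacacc
HBM promoter, chr16:165728-166027, plus strand: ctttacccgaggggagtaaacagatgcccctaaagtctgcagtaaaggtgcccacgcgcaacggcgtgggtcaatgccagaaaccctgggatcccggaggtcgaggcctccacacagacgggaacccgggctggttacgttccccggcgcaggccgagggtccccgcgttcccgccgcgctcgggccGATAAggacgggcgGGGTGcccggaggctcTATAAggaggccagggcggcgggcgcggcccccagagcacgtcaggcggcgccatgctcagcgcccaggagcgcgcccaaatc

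Both windows held a match to GATAA, the core bound by GATA factors such as the erythroid GATA1. In HBD it lay on the opposite strand (TTATC) with its first printed base 78 bases before the start, and in HBM on the same strand 63 bases before the start. GATAA occurred on either strand in 22.7% of the 35116 promoters of the same length. CCAAT, the core of NF-Y sites, was found in HBD, 153 bases before the start, and in 34.6% of all promoters. In HBM the complement of CACCC, the core bound by KLF1, lay 49 bases before the start, and TATAA lay 33 bases before it. CACCC was found in 59.9% of all promoters and TATAA in 20.4%. Neither window held CGGAA, part of the sites of ETS factors such as ERF, on either strand, against 34.9% of all promoters. The shorter GGAA within it does occur in both printed windows, but it was not among the motifs searched and is not marked. The motifs were chosen with these sequences in view, none of the matches overlapped another, and a match or its absence says nothing about binding.

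Set among all genes, HBG2 ranked 19 of 11976 by log2 fold change, HBD 51, HBA2 101, HBA1 247, HBB 949, HBM 1538, AHSP 1908 and HBQ1 7023. These ranks count from the highest, and the sign was set by HBG2 itself. With the sign turned, HBG2 ranked 11958, HBD 11926, HBA2 11876, HBA1 11730, HBB 11028, HBM 10439, AHSP 10069 and HBQ1 4954. HBB ranked 7 of all genes by mean expression not corrected for length, with 12.48 log2 CPM in the authors' deposited table, behind mitochondrial transcripts and EEF1A1. AHSP stood at 7.90, HBA2 at 7.30, HBA1 at 7.12 and HBD at 6.51 in the authors' deposited table on the same log2 CPM scale, all above the median of 4.64. HBM (3.45), HBG2 (3.18) and HBQ1 (3.05) lay below that median in the authors' deposited table. HBG2, which orients the whole comparison, is thus a gene of low mean expression, and its standard error of 0.22 was larger than that of 97.1% of genes.

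**Figure D3:**
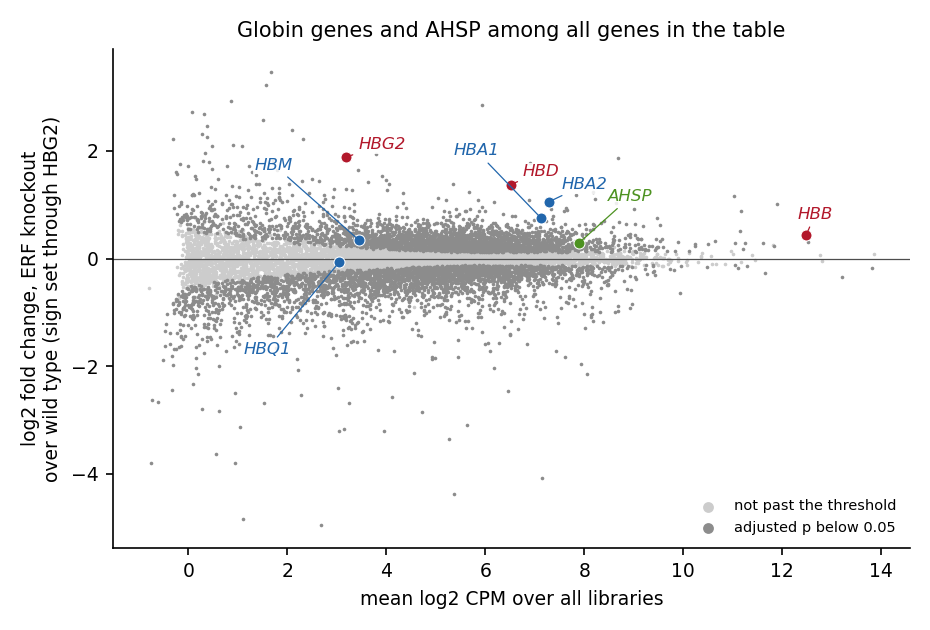
Log2 fold change, ERF knockout over wild type, against mean log2 CPM for all 11976 genes, with the globin genes and AHSP in colour. HBB stands at 12.48 log2 CPM with a modest fold change, and HBG2 at 3.18 log2 CPM with the largest of the 8.

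Near-identical copies limit what the α and γ values can show. In GENCODE release 29 transcripts, 81.8% of all 50-base words of HBA2 and 81.6% of those of HBA1 also occurred in the other copy. For HBG2, 78.6% of 50-base words occurred in transcripts of other genes, HBG1 among them. For HBD and HBB the shares were 2.31% and 2.94%, and for HBM, HBQ1 and AHSP 0%. With 100-base words the shares were 79.9% for HBA2, 79.7% for HBA1 and 76.3% for HBG2. No source used here gives the read length, so the split between HBA2 and HBA1 and the level of HBG2 are uncertain, while HBD and HBB can be told apart by most of their sequence. Annotated exons overlap as well: 57.3% of the exon bases of HBG2 and 44.8% of those of HBM are shared with other genes in that release, HBE1 and HBZ among them, against 6.93% for HBD and 0% for HBB, HBA2, HBA1, HBQ1 and AHSP. Reads set aside as not uniquely aligned held 5.45% of the CPM, with a log2 fold change of 0.05 (adjusted p = 0.295), and ambiguous reads 8.17%, with 0.03 (adjusted p = 0.411), in the authors' deposited table by its quasi-likelihood F test.

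Among 28 measured genes flanking the loci, 15 did not pass the threshold, 7 were higher and 6 lower, and the median was 0.05. The share past the threshold, 46.4%, was near the 50.9% of all genes, so the pooled count shows nothing particular to the flanks. By locus it was 35.7% of 14 genes beside the α cluster and 57.1% of 14 beside the β cluster, a difference not tested. Beside the α cluster, NPRL3, whose introns hold the α-globin enhancers and which encodes a subunit of the GATOR1 complex, fell by 0.29 on the log2 scale in the authors' deposited table (adjusted p = 0.00251, quasi-likelihood F test). On the other side LUC7L, a splicing factor gene, stood at 0.04 with an interval of -0.06 to 0.14. The highest flanking gene called beside the α cluster was POLR3K, an RNA polymerase III subunit gene on the NPRL3 side, at 0.44 in the authors' deposited table. Beside the β cluster, TRIM68 on the HBB side stood at 0.11 and was not past the threshold, and TRIM6 on the HBG2 side was the lowest, at -0.77 in the authors' deposited table. DNHD1 was the highest there, at 0.55, with the ubiquitin ligase gene TRIM21 at 0.54 in the authors' deposited table.

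**Figure D4:**
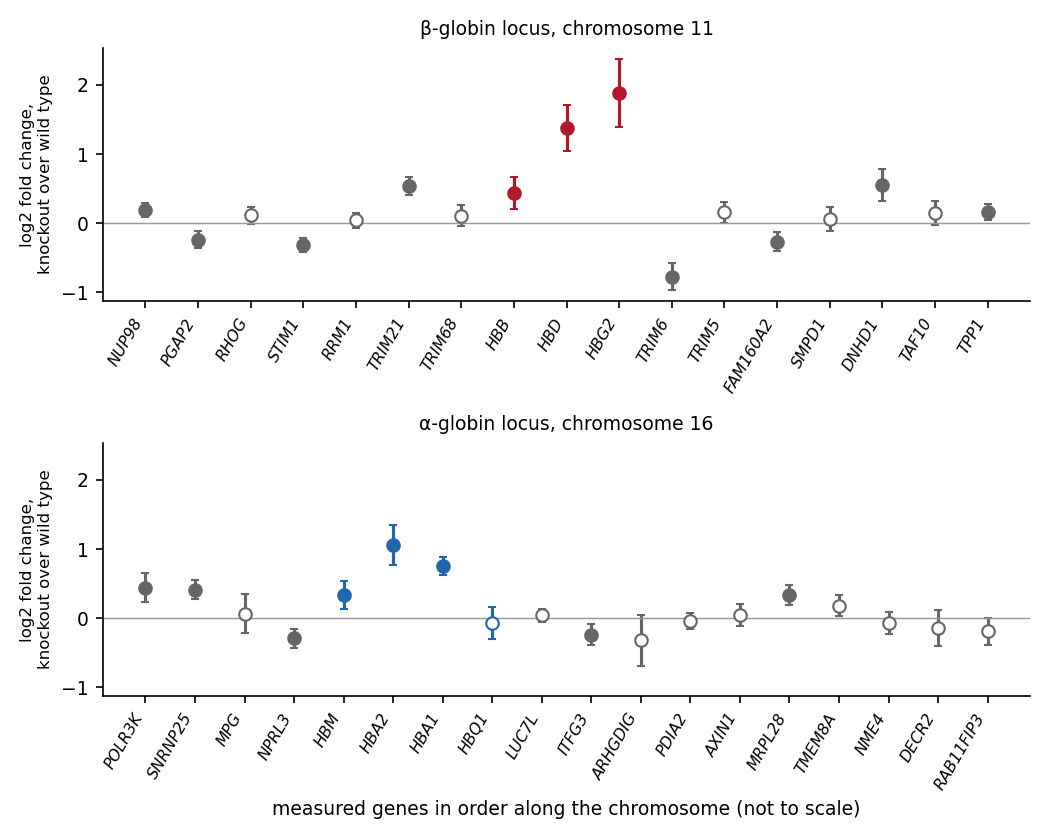
Log2 fold change with 95% interval of the measured genes of each locus and its flanks, in chromosomal order and not to scale, with globin genes in colour and open points not past the threshold. The called globin genes lie above 0 in both loci, while the nearest flanking genes TRIM68, TRIM6, NPRL3 and LUC7L lie between -0.77 and 0.11.

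Among 18 measured factors that activate the globin loci, 7 were lower and 6 higher, 72.2% in all beside 50.9% of all genes, and the median was -0.04. MAFK, a small MAF partner of NFE2, was the highest at 0.45, and SP1, which binds GC-rich and CACCC elements, the lowest at -0.46 in the authors' deposited table. KLF1, the erythroid CACCC factor, stood at 0.17 and was called, while GATA1 (-0.12), TAL1 (0.06), LDB1 (-0.06) and NFE2 (-0.01), which act at the enhancers of both loci, missed the threshold in the authors' deposited table. The other lower activators were LMO2 (-0.37), NFYB (-0.35), MAFG (-0.20), NFYC (-0.20), TCF12 (-0.19) and USF2 (-0.16) in the authors' deposited table. NFYA (0.44), USF1 (0.31), ZFPM1 (0.31) and TCF3 (0.30) were the other higher activators there. Of 20 genes that repress or silence γ-globin, 4 were lower and 8 higher, 60% in all, and the median was 0.09. With fold changes centred on the median of genes at 5 log2 CPM or more, 5 were lower and 6 higher. The 4 lower genes were MYB, the lowest at -0.91, ATF4 (-0.88), BCL11A (-0.53) and NFIA (-0.24) in the authors' deposited table. The highest called were IKZF1 at 0.33, HDAC1 (0.31), GATAD2A (0.30) and MTA2 (0.21) in the authors' deposited table. EHMT1 (0.20), HDAC2 (0.19), ZBTB7A (0.16) and NFIX (0.14) were the other higher genes there. Whether any of these regulators acts on the globin genes here was not tested.

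Among 17 genes that handle heme and free globin chains, 6 were lower and 3 higher, 52.9% in all beside 50.9% of all genes, and the median was -0.03. UBE2O, an enzyme that tags free α-globin for degradation, was the highest at 0.29, and ULK1, a kinase that starts autophagy and helps clear free α-globin, stood lower, at -0.32, in the authors' deposited table. ALAD, the second enzyme of heme synthesis, was the lowest at -0.56, whereas ALAS2, the erythroid first enzyme, stood at 0.22 in the authors' deposited table. The other lower genes were PPOX (-0.38), SLC25A38 (-0.37), FECH (-0.31) and FLVCR1 (-0.20), and UROD (0.15) was the other higher one there. EIF2AK1, the heme-regulated kinase that limits globin translation, stood at 0.02 in the authors' deposited table and was not past the threshold.

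**Figure D5:**
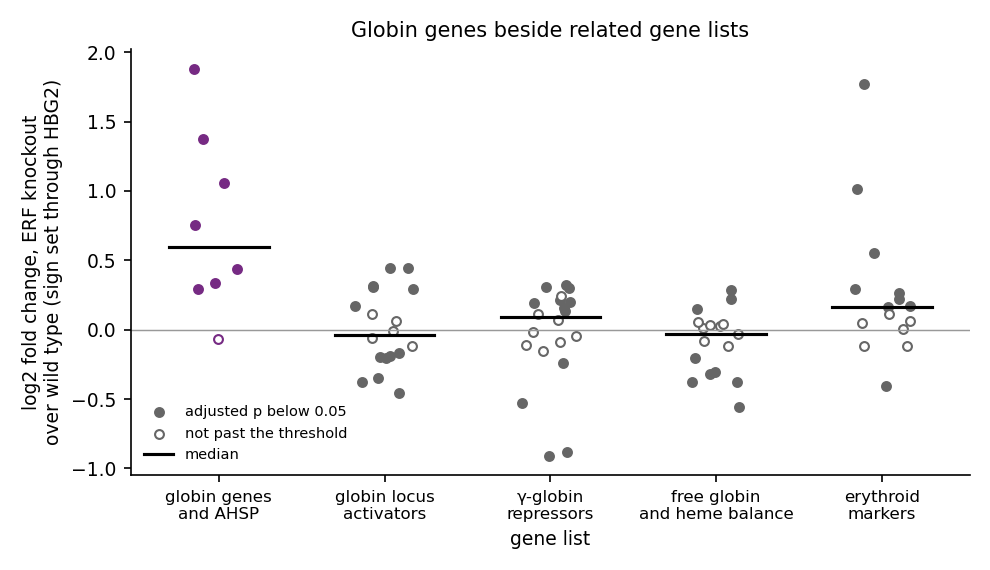
Log2 fold change of each gene, ERF knockout over wild type, in the globin set and 4 related lists, with a bar at the median and open points not past the threshold. The median is 0.59 for the globin genes and AHSP, or 0.43 without HBG2, which set the sign, -0.04 for activators, 0.09 for γ-globin repressors, -0.03 for heme and free globin genes and 0.17 for erythroid markers.

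Markers of the labelled cell type were present. All 15 erythroid markers analysed here were measured, at 3.94 to 11.89 log2 CPM. Of these, 1 was lower and 8 were higher, 60% in all beside 50.9% of all genes, and the median was 0.17. Centred in the same way, 3 were lower and 8 higher. SLC4A1, the anion exchanger of the red cell membrane, was the highest at 1.77, and TFRC, the transferrin receptor, stood at 1.01 in the authors' deposited table. GYPB was the lower one, at -0.40 in the authors' deposited table. Of markers of other cells, 1 of 6 megakaryocyte genes (ITGA2B), 3 of 9 granulocyte and monocyte genes (SPI1, CD33 and LYZ), 0 of 5 lymphoid genes and 1 of 4 stem and progenitor genes were in the table. None of the 4 megakaryocyte and myeloid genes was past the threshold, and KIT, the progenitor gene, fell by 0.41 on the log2 scale in the authors' deposited table. The higher erythroid markers moved with the globin genes, and their part in the globin result was not tested.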

How the data were processed

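Per the labels' protocols, Trizol RNA went into Illumina TruSeq libraries. The submitters' processing notes name, without roles, HTSeq, SAMtools, TopHat2 2.0.4, edgeR 2.6.12, Cuffdiff and hg19/GRCh37; filters, normalization and strand setting were not found in the sources. The only file is the authors' deposited table of 11979 rows, with, per gene, the log2 fold change and mean log2 CPM. Per the file headers it also gives a quasi-likelihood F score and a raw and adjusted p-value. The 3 rows that name no gene (21.5% of the CPM) were left out. With 0 columns per sample, nothing was refitted and depth is unknown.

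Deposited log2 fold changes were multiplied by -1 so that HBG2 is higher in the knockout. Standard errors are the absolute log2 fold change over the square root of F. Intervals at 95% used t with 10.3 degrees of freedom, implied by F and p, and are approximate. Group CPM took the mean log2 CPM as the log2 of the mean over 5 libraries, since the values sum to 1000450. Transcript lengths, shared words and exon overlaps came from GENCODE 29 (GRCh38), and none of its coordinates was used with hg19. Python 3.11.15, scipy 1.17.1 and pandas 2.3.3 were used. Standard errors, degrees of freedom, p adjustment and centred calls were checked on simulated data with 200 changed genes, against 6092 genes called here. Centring was thus not checked with as many changed genes as here, and group levels, shares and sequence counts were not checked.

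Members and lists were chosen with earlier results of these data known. Named genes are the members, the highest and lowest called gene of each list and the nearest locus neighbours. Other genes named (TRIM21, KLF1, GATA1, TAL1, LDB1, NFE2, ATF4, BCL11A, NFIA, ULK1, ALAS2, EIF2AK1, TFRC and markers of other cells) were chosen after their values were seen. So were HDAC1, GATAD2A, MTA2, EHMT1, HDAC2, ZBTB7A and NFIX. The same holds for LMO2, NFYB, MAFG, NFYC, TCF12, USF2, NFYA, USF1, ZFPM1 and TCF3, and for PPOX, SLC25A38, FECH, FLVCR1 and UROD. One erythroid marker of the list is not reported here.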

Additional observations from a re-analysis of the deposited data

How the results depend on the processing

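The 7 genes past the threshold, 6 globin genes and AHSP, kept their direction and call with an adjusted p below 0.01, with adjustment over gene rows alone, with a minimum of 1 log2 CPM and with centring on the median of all genes or of genes at 5 log2 CPM or more. With a minimum of 5 log2 CPM, 5 of the 8 were tested and all 5 were called, beside 57.2% of all genes. With a minimum of 1 log2 CPM, 52.8% of all genes were called, and at an adjusted p below 0.01, 35.9%. Centring moved fold changes by at most 0.04 and left HBQ1 short of the threshold. The calls over all genes split into 2987 higher and 3105 lower, or 2566 and 3532 when centred on genes at 5 log2 CPM or more. Flanking genes past the threshold numbered 6 with a minimum of 5 log2 CPM, where 12 of 28 were tested. That was 50% of them, beside 57.2% of all genes. Activators past it numbered 8 at an adjusted p below 0.01, a stricter call, or 44.4% beside 35.9% of all genes. These settings for the flanks and activators were added for those lists after the data had been seen. So were the centred counts given above for the γ-globin repressors and the erythroid markers. With mean expression read as a mean of log2 values, HBG2 made up 0.232% of β-like CPM in knockout cells, against 0.197% as derived above without length, and its level there was 15.3 CPM. With the sign of every fold change turned, also tried after the data had been seen, the log2 fold changes were -1.88 for HBG2, -1.37 for HBD, -1.06 for HBA2, -0.75 for HBA1, -0.43 for HBB, -0.34 for HBM, -0.29 for AHSP and 0.068 for HBQ1. The same 7 genes were called, which was fixed in advance because the adjusted p does not depend on the sign. HBG2 then made up 0.0863% of β-like CPM in knockout cells and 0.233% in wild-type cells, and the ratio of β-like to α-like RNA per kilobase was 19.4 in knockout cells and 14.5 in wild-type cells. No paired analysis was possible because the table holds no values per library; for the same reason no replicate was left out and no other count model was run.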

Other observations

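Of the 44 genes at 10 log2 CPM or more, a limit set after the values were seen, 23, or 52.3%, were past the threshold, close to the 50.9% of all genes. HBB had a larger derived standard error than most of them, 0.10 against a median of 0.05, and 4 of the 44, HBB included, were at or above it. By log2 fold change, 5 of the 44, HBB included, were at or above HBB. TFRC was among these, at 1.01 in the authors' deposited table.

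None of the 9 further globin genes listed, CYGB, MB, NGB, HBE1 and HBZ among them, was in the table analysed here. The order seen among the β-like genes, a larger fold change at a lower level, did not hold in the α cluster, where HBQ1 and HBM were the least abundant and had the smallest log2 fold changes, -0.07 and 0.34 in the authors' deposited table.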
